A study of Mus musculus with 10 samples.

Results

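Prostaglandin E2 (PGE2) was given together with anti-IgM for 24 h to splenic B cells labelled Ptger4-/-, a genotype of the gene for the PGE2 receptor EP4, and what this addition changed in their RNA was read on 2 arrays. These are 2 of the 10 arrays of the study, chosen by their sample labels. Each carried RNA of cells given anti-IgM and PGE2 in one dye and RNA of cells given anti-IgM alone in the other, with the dyes exchanged between the arrays. On array 1 the PGE2 RNA was in Cy3, and on array 2 it was in Cy5. Anti-IgM here is the F(ab')2 fragment of an antibody against IgM, which engages the B cell receptor. All cells came from the spleens of female mice aged 2 months, were isolated with a magnetic B cell kit and were cultured in IMDM medium. The pair of arrays used for comparison held Ptger4+/+ cells under the same 2 conditions, anti-IgM with PGE2 and anti-IgM alone. Another pair set cells labelled Ptger4-/- over Ptger4+/+ cells, both with anti-IgM and PGE2 for 24 h, and the remaining 4 arrays compared anti-IgM for 2 h with medium in each genotype. The sources used here do not give the dose of PGE2, whether mice were pooled or how the gene was deleted.

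PGE2 is a lipid made from arachidonic acid by cyclooxygenases and prostaglandin E synthases. It acts on 4 receptors, encoded by Ptger1 to Ptger4. The products of Ptger2 and Ptger4, EP2 and EP4, couple to the stimulatory G protein and raise cyclic AMP, which activates protein kinase A and transcription through CREB family factors. Ptger3 encodes a receptor that mostly lowers cyclic AMP, and Ptger1 one that acts through calcium. In B cells, cyclic AMP is known to modulate the growth and activation signals of the B cell receptor.

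All values are log2 ratios, turned with the help of the dye labels so that anti-IgM with PGE2 stands over anti-IgM alone, so a positive value is higher with PGE2. Probes were averaged by gene symbol, which gave 18300 genes and 22533 features in all, 4233 of them probes without a symbol. Neither the direction nor the log base of the deposited values is given in the sources used here. Read as log2 of Cy5 over Cy3, the immediate-early gene Nr4a1 had a mean ratio of 1.80 in cells labelled Ptger4-/- and 2.42 in Ptger4+/+ cells after 2 h of anti-IgM over medium, which makes this direction likely. Array ratios carry no read depth, and 2 arrays a comparison limited the precision. The sources do not say whether the 2 arrays of a pair used separate RNA extracts, so the p-values may measure technical spread. Standard errors (SE) come from 1 limma fit over the 10 arrays with a dye effect for each feature. A feature was called where its Benjamini-Hochberg adjusted p over all 22533 features was under 0.05. The adjustment was made for each comparison separately, so a call needed a smaller unadjusted p in cells labelled Ptger4-/-. An unadjusted limma p of 0.0032 for Cd83 was not called there, while 0.012 for Cd2 was called in Ptger4+/+ cells.

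Ptger4 itself, which the genotype labels name, had 1 probe on the array. With PGE2 its log2 ratio was 0.06 and 0.03 on the arrays of cells labelled Ptger4-/-, against -0.63 and -0.54 on the arrays of Ptger4+/+ cells. The means were 0.04 ± 0.07 in cells labelled Ptger4-/- (limma adjusted p = 0.933) and -0.59 ± 0.07 in Ptger4+/+ cells (SE, n = 2 arrays each, limma adjusted p = 0.000964). Between the genotypes, both with anti-IgM and PGE2, the ratio was 0.46 and 0.52, higher in the RNA labelled Ptger4-/- (mean 0.49 ± 0.07, limma adjusted p = 0.00207). This probe therefore showed no loss of signal in RNA labelled Ptger4-/-. Its place in the gene was not given, and a probe outside the deleted part would not check the label. The genotype is given as labelled throughout, and each direction between genotypes rests on those labels.

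The 2 arrays of cells labelled Ptger4-/- went against each other over the features as a whole. Their turned ratios had a Pearson r of -0.22 and a Spearman rho of -0.34 over 22533 features, against 0.38 and 0.29 for the pair of Ptger4+/+ cells. The other 3 pairs had a Pearson r of 0.57 to 0.74. Features on an array share its 2 RNAs and its hybridisation, so these coefficients describe the arrays. The difference between the arrays labelled Ptger4-/-, divided by 2, correlated with the dye effect that the other 8 arrays gave (Pearson r 0.67 over 22533 features). With that dye effect taken out, the ratios of the pair had an r of 0.075 and a rho of 0.13. The part of this dye effect in single genes was not tested, and it cancels in the mean of a pair with exchanged dyes.

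**Figure D1:**
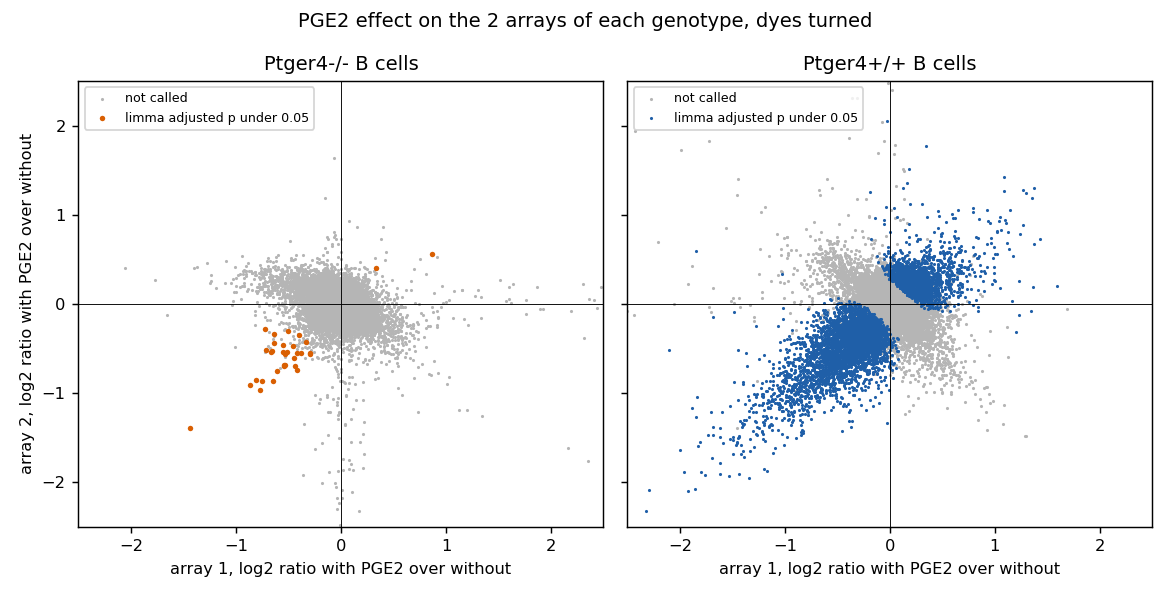
Log2 ratio with PGE2 on array 1 (x axis) against array 2 (y axis) for 22533 features, in cells labelled Ptger4-/- (left) and in Ptger4+/+ cells (right). The left cloud slopes down (r -0.22) and the right one slopes up (r 0.38), and 36 features on the left and 25 on the right lie beyond the axes at 2.5.

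Few responses to PGE2 passed the test in B cells labelled Ptger4-/-, and nearly all of those were falls. In cells labelled Ptger4-/- limma called 33 of 22533 features (0.146%), of which 2 were higher (0.00888%) and 31 lower (0.138%) with PGE2. In Ptger4+/+ cells the same fit called 5888 (26.1%), with 2053 higher (9.11%) and 3835 lower (17.0%). Before adjustment, a p under 0.05 was reached by 1880 features (8.34%) in cells labelled Ptger4-/- and by 8615 (38.2%) in Ptger4+/+ cells. The median SE of a mean was 0.06 in both genotypes, since they share 1 spread per feature.

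The count in cells labelled Ptger4-/- depended on single arrays. Without their array 1, 96 features were called, 5 higher and 91 lower, and 9 of the 33 were among them. Without their array 2, 47 were called, 42 higher and 5 lower, and 3 of the 33 were among them. Pfn1 and Nabp2 kept their call in both cases. When the arrays were scaled to the same spread, 167 features were called, 27 higher and 140 lower, and without the dye term 7 were, all of them lower. In Ptger4+/+ cells, 3874 features were called without their array 1 and 2663 without their array 2.

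The means were also narrower in cells labelled Ptger4-/-. From the 5th to the 95th percentile of features they ran from -0.17 to 0.12 in cells labelled Ptger4-/- and from -0.56 to 0.24 in Ptger4+/+ cells. Their SD over features was 0.13 in cells labelled Ptger4-/- and 0.27 in Ptger4+/+ cells. Single arrays labelled Ptger4-/- held 68 and 91 features at least 1 log2 unit from 0, but both arrays placed 0 features that far up and 1, Pfn1, that far down, while 7 stood that far out in opposite directions. On the arrays of Ptger4+/+ cells the counts were 7 up and 149 down on both arrays, with 15 opposite. The median 95% interval in cells labelled Ptger4-/- reached 0.13 on either side of the mean, without adjustment for the number of features. Changes much smaller than that were not detectable for a typical feature, and larger ones could also go uncalled. In cells labelled Ptger4-/- the smallest called fall had a mean of -0.37 and the smallest called rise 0.37.

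**Figure D2:**
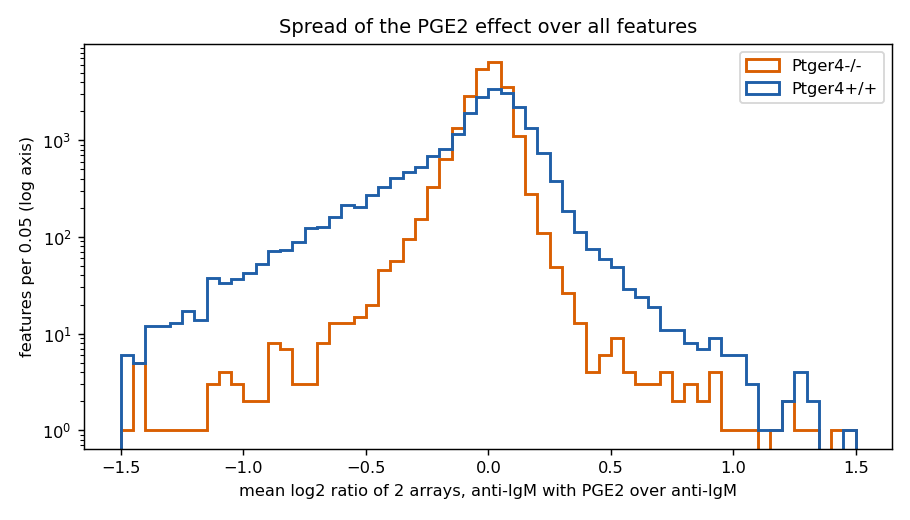
Distribution of the mean log2 ratio with PGE2 (x axis) over 22533 features (y axis, number of features in each step of 0.05, log scale) in cells labelled Ptger4-/- and in Ptger4+/+ cells. The Ptger4-/- means lie closer to 0, with the 5th and 95th percentiles at -0.17 and 0.12, and 24 Ptger4-/- and 55 Ptger4+/+ features lie beyond the axis at 1.5.

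The 33 called features comprised 28 genes, each with 1 probe, and 5 probes without a symbol, all 5 of them lower. Means of the 31 falls ran from -1.41 to -0.37. The largest fall was that of Pfn1, which encodes profilin-1, a protein that binds actin monomers. Pfn1 had log2 ratios of -1.44 and -1.39 on the arrays labelled Ptger4-/-, against 0.16 and 0.05 on the arrays of Ptger4+/+ cells. The pairs did not overlap. The mean was -1.41 ± 0.06 in cells labelled Ptger4-/- (limma adjusted p = 0.000741) and 0.10 ± 0.06 in Ptger4+/+ cells (limma adjusted p = 0.235), and the difference of -1.52 ± 0.08 was called too (limma adjusted p = 0.000346). Pfn1 was the one gene of the 28 that was called under each of the 11 other settings tried.

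The other falls are given gene by gene. Cd79a, encoding the Ig-alpha signalling chain of the B cell receptor, stood at -0.75 and -0.87 on the arrays labelled Ptger4-/-, against 1.02 and 0.81 on the arrays of Ptger4+/+ cells. It fell in cells labelled Ptger4-/- (mean -0.81 ± 0.06, limma adjusted p = 0.0167) and rose in Ptger4+/+ cells (mean 0.92 ± 0.06, limma adjusted p = 0.000145). The directions were opposite on all 4 arrays, and Cd79a kept its call in cells labelled Ptger4-/- without their array 1 but not without their array 2. Ptk2b, encoding the tyrosine kinase Pyk2, had -0.44 and -0.69 on the arrays labelled Ptger4-/-, against 0.48 and 0.70 on those of Ptger4+/+ cells. The adaptor gene Grb2 had -0.42 and -0.55 on the arrays labelled Ptger4-/-, against 0.52 and 0.57 on those of Ptger4+/+ cells. Both fell in cells labelled Ptger4-/- and were on the other side of 0 in Ptger4+/+ cells. Nab2, encoding a corepressor of the early growth response factors, had -0.67 and -0.54 on the arrays labelled Ptger4-/-, against 0.01 and 0.05 in Ptger4+/+ cells. Its falls on the arrays labelled Ptger4-/- did not overlap the values near 0 in Ptger4+/+ cells. Grb2, Cic, Lbh, Unc93b1, Ncstn and Atic lay beyond the 15 largest falls and were chosen after their values were seen.

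Psme3, encoding the nuclear proteasome activator PA28 gamma, stood at -0.81 and -0.86 on the arrays labelled Ptger4-/-, against 0.32 and 0.29 on those of Ptger4+/+ cells. Khsrp, whose product binds AU-rich messages and promotes their decay, stood at -0.55 and -0.54 on the arrays labelled Ptger4-/-, against 0.32 and 0.26 on those of Ptger4+/+ cells. Both were lower in cells labelled Ptger4-/- on each array and above 0 in Ptger4+/+ cells. Nabp2, encoding a protein that binds single-stranded DNA, stood at -0.72 and -0.52 on the arrays labelled Ptger4-/-, against 0.34 and 0.32 on those of Ptger4+/+ cells (means -0.62 ± 0.05, limma adjusted p = 0.0141, and 0.33 ± 0.05, limma adjusted p = 0.00203). Zfr, encoding a zinc finger protein that binds RNA, stood at -0.64 and -0.44 on the arrays labelled Ptger4-/-, against -0.27 and -0.34 in Ptger4+/+ cells, so it fell in both. Prrc2a, encoding a large RNA-binding protein, had a mean of -0.61 ± 0.05 in cells labelled Ptger4-/- and 0.02 ± 0.05 in Ptger4+/+ cells. Tcea1, encoding the elongation factor TFIIS, fell with means of -0.49 ± 0.06 in cells labelled Ptger4-/- and -0.85 ± 0.06 in Ptger4+/+ cells. Ubqln2, encoding a ubiquilin that binds ubiquitinated proteins, fell as well, with means of -0.43 ± 0.05 in cells labelled Ptger4-/- and -0.34 ± 0.05 in Ptger4+/+ cells. Cic, encoding a transcriptional repressor, had a mean of -0.41 ± 0.05 in cells labelled Ptger4-/- and -0.06 ± 0.05 in Ptger4+/+ cells. Lbh, encoding a transcription cofactor, had a mean of -0.38 ± 0.05 in cells labelled Ptger4-/- and -0.02 ± 0.05 in Ptger4+/+ cells. Cic and Lbh were thus called in cells labelled Ptger4-/- alone, and the difference was called for both. Without the dye term both genes lost both calls. Leaving out any array of the 2 PGE2 pairs also lost their call in cells labelled Ptger4-/-. The calls of Psme3, Zfr, Tcea1 and Ubqln2 in cells labelled Ptger4-/- were lost in each of these cases too. So were those of Ptk2b above and of Tomm6, Ly6e, Ncstn and Atic below or above.

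Cpox, encoding an enzyme of haem synthesis, stood at -0.55 and -0.68 on the arrays labelled Ptger4-/-, against 0.34 and 0.40 on those of Ptger4+/+ cells. Selenow, encoding a small selenoprotein, stood at -0.65 and -0.87 on the arrays labelled Ptger4-/-, against 0.66 and 0.63 on those of Ptger4+/+ cells. Tomm6, encoding a small subunit of the protein importer of the outer mitochondrial membrane, stood at -0.61 and -0.75 on the arrays labelled Ptger4-/-, against 0.24 and 0.50 on those of Ptger4+/+ cells. All 3 fell in cells labelled Ptger4-/- and rose in Ptger4+/+ cells. Ly6e, encoding a surface protein anchored by a lipid, stood at -0.54 and -0.70 on the arrays labelled Ptger4-/-, against 0.11 and -0.07 on those of Ptger4+/+ cells. Plekhj1, which encodes a pleckstrin homology domain protein, had a mean of -0.55 ± 0.06 in cells labelled Ptger4-/- and 0.26 ± 0.06 in Ptger4+/+ cells. Ly6e overlapped 0 in Ptger4+/+ cells, while Plekhj1 was called on opposite sides. Slc22a4, encoding a transporter of organic cations, had a mean of -0.53 ± 0.05 in cells labelled Ptger4-/- and 0.79 ± 0.05 in Ptger4+/+ cells. Unc93b1, whose product carries Toll-like receptors to endosomes, had a mean of -0.46 ± 0.04 in cells labelled Ptger4-/- and 0.63 ± 0.04 in Ptger4+/+ cells. Ncstn, encoding a subunit of gamma-secretase, had a mean of -0.47 ± 0.05 in cells labelled Ptger4-/- and 0.37 ± 0.05 in Ptger4+/+ cells. All 3 of these membrane genes fell in cells labelled Ptger4-/- and rose in Ptger4+/+ cells. Dhcr7, encoding the last enzyme of cholesterol synthesis, had a mean of -0.42 ± 0.04 in cells labelled Ptger4-/- and 0.32 ± 0.04 in Ptger4+/+ cells. Atic, encoding an enzyme of purine synthesis, had a mean of -0.52 ± 0.06 in cells labelled Ptger4-/- and 0.00 ± 0.06 in Ptger4+/+ cells.

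A minority of the falls were shared with Ptger4+/+ cells. Of the 31 falls in cells labelled Ptger4-/-, 9 were also called lower in Ptger4+/+ cells, which is 29.0% of the Ptger4-/- falls and 0.235% of the Ptger4+/+ falls. Ywhae, encoding the adaptor protein 14-3-3 epsilon, was the largest of them at -0.86 and -0.91 on the arrays labelled Ptger4-/-, against -0.64 and -1.03 on those of Ptger4+/+ cells. The pairs overlapped, and the difference of -0.06 ± 0.12 was not called (limma adjusted p = 0.83). Tgfb1, encoding the cytokine TGF-beta 1, stood at -0.72 and -0.28 on the arrays labelled Ptger4-/-, against -0.75 and -1.06 on those of Ptger4+/+ cells. Its fall was smaller in cells labelled Ptger4-/- by 0.41 ± 0.07 (limma adjusted p = 0.00818), and this difference lost its call without array 2 labelled Ptger4-/-, without the dye term and with scaled arrays. Of the other falls in cells labelled Ptger4-/-, 13 were called higher and 9 were not called in Ptger4+/+ cells. Over all features, 17.0% were called lower and 9.11% higher in Ptger4+/+ cells. Both genotypes share 1 SE per feature, so a feature with a small SE is more easily called in both. This can raise the overlap in either direction above those shares. The difference itself was called for 25 of the 31, 22 of them lower and 3 higher in cells labelled Ptger4-/-. Over all features it was called for 12.7%, with 3.33% lower and 9.33% higher. The choice of low Ptger4-/- values largely sets the count of lower ones, since those values are part of the difference.

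**Figure D3:**
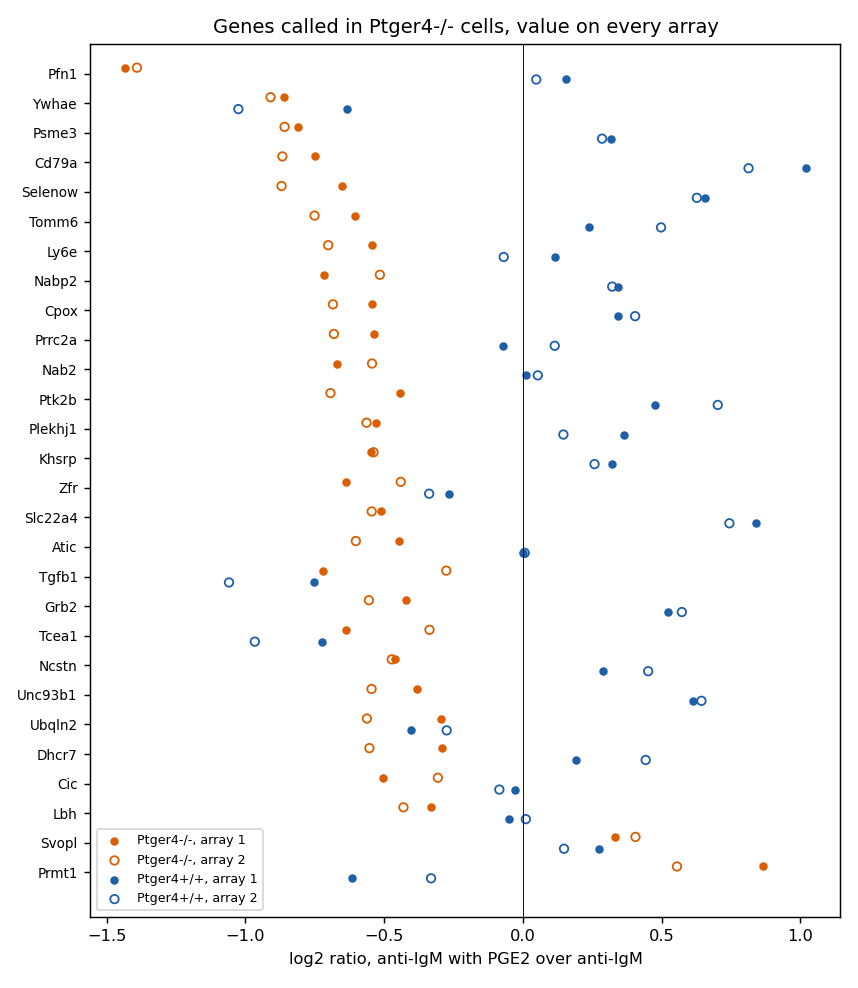
Log2 ratio with PGE2 (x axis) on each array for the 28 genes called in cells labelled Ptger4-/- (y axis), with the arrays of cells labelled Ptger4-/- and of Ptger4+/+ cells in different colours. All Ptger4-/- points of the 26 falls lie below 0, while the Ptger4+/+ points lie on either side, as at Ywhae (-0.64 and -1.03) and Cd79a (1.02 and 0.81).

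Only 2 genes rose in cells labelled Ptger4-/-, by this fit. Prmt1, encoding the main enzyme for asymmetric dimethylation of arginine, stood at 0.86 and 0.56 on the arrays labelled Ptger4-/-, against -0.62 and -0.33 on those of Ptger4+/+ cells. It rose in cells labelled Ptger4-/- (mean 0.71 ± 0.07, limma adjusted p = 0.0267) and fell in Ptger4+/+ cells (mean -0.47 ± 0.07, limma adjusted p = 0.00322). Svopl, which encodes a protein like a synaptic vesicle transporter, stood at 0.33 and 0.41 on the arrays labelled Ptger4-/-, against 0.27 and 0.15 on those of Ptger4+/+ cells. It rose in both genotypes, and the difference of 0.16 ± 0.06 was not called (limma adjusted p = 0.169). Each rise lost its call when either array labelled Ptger4-/- was left out. Larger means stood on 1 array, as for Irak3 with 5.35 and 0.23 and Rusc1 with 4.94 and 0.04, and neither was called.

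The same genes were measured in the other comparisons of the study. In the direct comparison of RNA labelled Ptger4-/- over Ptger4+/+ RNA, both with anti-IgM and PGE2, 6069 features were called (26.9%), 3593 higher (15.9%) and 2476 lower (11.0%). Of the 31 falls, 19 were called lower and 8 higher there. Pfn1 stood at -0.42, Cd79a at -1.18 and Prmt1 at 2.13 on that scale. This comparison holds the PGE2 condition of both pairs, so it is not independent of them. After 2 h of anti-IgM over medium, 15 of the 31 were below 0 in cells labelled Ptger4-/- and 16 in Ptger4+/+ cells, close to the 48.6% and 48.2% of all features.

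The receptors and enzymes of the prostaglandin pathway held 0 calls in cells labelled Ptger4-/- by limma, with 2 of 24 measured members at an unadjusted p under 0.05, near the 0.146% and 8.34% of all features. In Ptger4+/+ cells 4 of them fell and 0 rose, beside 17.0% and 9.11% of all features, so as a group they did not stand out there by count. Ptger2, encoding the EP2 receptor, had ratios of -0.11 and -0.04 on the arrays labelled Ptger4-/-, against -0.57 and -0.65 on those of Ptger4+/+ cells. The pairs did not overlap, and the difference of 0.54 ± 0.07 was called (limma adjusted p = 0.00302). Ptger1 had a mean of 0.01 ± 0.05 in cells labelled Ptger4-/- and 0.00 ± 0.05, just below 0, in Ptger4+/+ cells. Ptger3 had a mean of 0.02 ± 0.09 in cells labelled Ptger4-/- and 0.01 ± 0.09 in Ptger4+/+ cells. These ratios do not say how strongly any receptor was expressed. Ptgs2, encoding the inducible cyclooxygenase, had 0.28 and 0.36 on the arrays labelled Ptger4-/-, against -0.09 and -0.14 on those of Ptger4+/+ cells. Its mean of 0.32 ± 0.07 in cells labelled Ptger4-/- was not called (limma adjusted p = 0.273), while the difference of 0.44 ± 0.10 was (limma adjusted p = 0.0317). Tbxa2r, the thromboxane receptor gene, had a mean of 0.06 ± 0.06 in cells labelled Ptger4-/- and -0.71 ± 0.06 in Ptger4+/+ cells. Ptges3, encoding the cytosolic prostaglandin E synthase, had a mean of -0.02 ± 0.06 in cells labelled Ptger4-/- and -0.55 ± 0.06 in Ptger4+/+ cells.

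Genes known as targets of cyclic AMP and CREB held 0 calls among 28 measured members in cells labelled Ptger4-/-, with 2 at an unadjusted p under 0.05, near the 0.146% and 8.34% of all features. In Ptger4+/+ cells 3 of the 28 rose and 10 fell, beside 9.11% and 17.0% of all features. The difference was called for 5 higher and 2 lower in cells labelled Ptger4-/-, beside 9.33% and 3.33% of all features. Crem, encoding a CREB family factor that cyclic AMP induces, had ratios of 0.09 and 0.10 on the arrays labelled Ptger4-/-, against 0.79 and 1.03 on those of Ptger4+/+ cells. The mean was 0.10 ± 0.06 in cells labelled Ptger4-/- (95% interval -0.03 to 0.23, limma adjusted p = 0.738) and 0.91 ± 0.06 in Ptger4+/+ cells (limma adjusted p = 9.15e-05). Crem therefore lay above 0 on each array of both genotypes, and was higher in Ptger4+/+ cells, with a difference of -0.82 ± 0.08 (limma adjusted p = 0.00125). Pde4b, encoding a phosphodiesterase that degrades cyclic AMP, had 0.12 and 0.14 on the arrays labelled Ptger4-/-, against 0.61 and 0.76 on those of Ptger4+/+ cells. The mean of 0.13 ± 0.06 in cells labelled Ptger4-/- was not called (limma adjusted p = 0.665), and the difference of -0.55 ± 0.09 was (limma adjusted p = 0.00808), although not without array 1 labelled Ptger4-/-, without array 2 of Ptger4+/+ cells or with scaled arrays. Nr4a1, encoding a nuclear receptor that cyclic AMP and the B cell receptor both induce, had a mean of -0.01 ± 0.07 in cells labelled Ptger4-/- and 0.23 ± 0.07 in Ptger4+/+ cells, and neither was called (limma adjusted p = 0.994 and 0.0564).

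The machinery of cyclic AMP and G protein signalling had 37 measured members. In cells labelled Ptger4-/- limma called 0 of them (0.146% of all features) and 5 had an unadjusted p under 0.05 (8.34% of all features). In Ptger4+/+ cells 1 rose and 17 fell, beside 9.11% and 17.0% of all features, and 19 were not called. The difference was called for 11 higher and 2 lower in cells labelled Ptger4-/-, beside 9.33% and 3.33% of all features. Gnai2, encoding an inhibitory G protein subunit, had -0.15 and -0.17 on the arrays labelled Ptger4-/-, against -1.40 and -1.35 on those of Ptger4+/+ cells. Rap1a, encoding a small GTPase that the cyclic AMP sensor EPAC activates, had 0.34 and 0.11 on the arrays labelled Ptger4-/-, against -1.08 and -1.04 on those of Ptger4+/+ cells. The difference was called for both, at 1.21 ± 0.07 for Gnai2 (limma adjusted p = 0.000386) and 1.28 ± 0.10 for Rap1a (limma adjusted p = 0.000734).

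Promoters of 4 genes are shown because the letters of the cyclic AMP response element bear on these targets: Nr4a1 and Pde4b as known targets, and Psme3 and Prmt1 as genes called in cells labelled Ptger4-/-. Each is 300 bases from RefSeq on the mouse build GRCm38.p6, 5' to 3' on the gene's strand. It runs from 250 bases before to 50 after a listed start of the gene, which need not be its only one. Capitals mark TGACG or its reverse complement CGTCA, searched on both strands. The full element, TGACG followed at once by TCA, contains both and occurs in 0 of the 4.
Nr4a1, GRCm38.p6 chr15:101266596-101266895, plus strand: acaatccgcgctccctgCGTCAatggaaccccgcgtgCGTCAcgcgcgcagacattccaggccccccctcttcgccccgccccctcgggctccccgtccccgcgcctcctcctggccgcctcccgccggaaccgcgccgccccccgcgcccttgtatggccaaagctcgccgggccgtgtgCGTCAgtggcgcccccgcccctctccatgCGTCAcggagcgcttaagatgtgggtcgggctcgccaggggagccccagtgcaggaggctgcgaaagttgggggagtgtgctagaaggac
Pde4b, GRCm38.p6 chr4:102421305-102421604, plus strand: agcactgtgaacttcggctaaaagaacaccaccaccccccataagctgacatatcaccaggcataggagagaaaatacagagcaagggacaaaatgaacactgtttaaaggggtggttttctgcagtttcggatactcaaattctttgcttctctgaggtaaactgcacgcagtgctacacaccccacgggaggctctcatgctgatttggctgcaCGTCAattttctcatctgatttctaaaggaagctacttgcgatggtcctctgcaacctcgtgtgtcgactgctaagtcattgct
Psme3, GRCm38.p6 chr11:101315963-101316262, plus strand: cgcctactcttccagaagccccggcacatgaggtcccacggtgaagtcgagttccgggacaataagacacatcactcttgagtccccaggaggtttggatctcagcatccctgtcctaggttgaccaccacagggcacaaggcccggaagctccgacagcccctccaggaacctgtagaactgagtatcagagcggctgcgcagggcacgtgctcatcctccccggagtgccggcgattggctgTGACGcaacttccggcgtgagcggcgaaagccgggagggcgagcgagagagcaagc
Prmt1, GRCm38.p6 chr7:44986371-44986670, minus strand: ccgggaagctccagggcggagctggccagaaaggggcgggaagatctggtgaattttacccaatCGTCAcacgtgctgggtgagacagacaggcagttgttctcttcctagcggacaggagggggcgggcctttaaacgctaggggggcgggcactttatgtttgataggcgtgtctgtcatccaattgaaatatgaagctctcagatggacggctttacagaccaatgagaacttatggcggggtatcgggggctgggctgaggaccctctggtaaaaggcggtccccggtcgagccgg
Nr4a1 holds 4 such short elements, and the others 1 each. Only promoter windows with the short element were eligible to be shown, also where a gene had several, so its presence in each was set by the choice. For the shares of genes, a gene counted where any of its promoter windows held the element. Of the array's genes, 14684 of 18300 had an entry, and 28.7% of these held the short element and 2.79% the full one. Of all single windows, on or off the array, 20.8% held the short element and 1.79% the full one. Among the genes called lower in cells labelled Ptger4-/-, 7 of 21 with an entry (33.3%) held the short element and 0 the full one. Among the genes called in Ptger4+/+ cells, the short element was in 21.0% of those that rose and 40.4% of those that fell. A match of letters is a description and shows no binding.

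The genes that PGE2 changed in Ptger4+/+ cells were then read on the arrays labelled Ptger4-/-. The ratios of the genotypes come from separate arrays, but the choice of features is not independent of the arrays labelled Ptger4-/-. The limma fit over all arrays gave each feature a shared SE and dye effect. A feature on which the arrays labelled Ptger4-/- agreed could thus be called more easily in Ptger4+/+ cells. This can raise the shares below with both arrays on the same side of 0, and its part in them was not tested. The 2053 features that rose in Ptger4+/+ cells had a median of 0.012 in cells labelled Ptger4-/- and 0.23 in Ptger4+/+ cells, and 56.5% of them were above 0 in cells labelled Ptger4-/-. The 3835 that fell had a median of -0.026 in cells labelled Ptger4-/- and -0.40 in Ptger4+/+ cells, and 62.7% were below 0 in cells labelled Ptger4-/-. Over all features the Ptger4-/- median was 0.0018, with 51.1% above and 48.9% below 0. Both arrays labelled Ptger4-/- were below 0 for 32.1% of the features that fell and above 0 for 15.7%. Of the features that rose, 24.5% were above 0 and 19.3% below 0 on both. Over all features, 18.9% were below 0 and 18.6% above 0 on both. The median over the features that rose changed sign in several settings, and was -0.025 without array 2 of Ptger4+/+ cells. Across the 22533 features the means of the genotypes had a Pearson r of 0.041 and a Spearman rho of 0.16, as a description of these arrays.

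The largest Ptger4+/+ responses showed no such shift in the same direction. The 221 features that fell by at least 1 log2 unit in Ptger4+/+ cells had a median of 0.039 in cells labelled Ptger4-/-, where 59.3% were above 0. The difference was called for 215 of them (97.3%), a share that the choice of large Ptger4+/+ values largely sets, since those values are part of the difference. The 16 that rose by at least 1 log2 unit had a median of -0.08 in cells labelled Ptger4-/-, and the difference was called for 14 (87.5%), which the choice likewise sets.

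**Figure D4:**
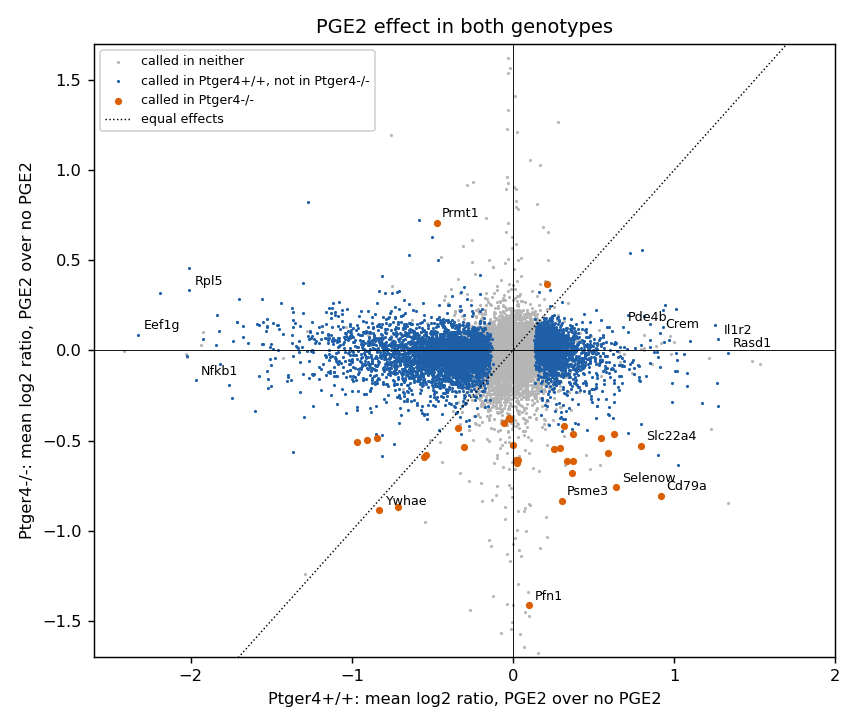
Mean log2 ratio with PGE2 in cells labelled Ptger4-/- (y axis) against that in Ptger4+/+ cells (x axis) for 22533 features, with the features called in cells labelled Ptger4-/- marked. The cloud is flat along the Ptger4-/- axis and stretched along the Ptger4+/+ axis (r 0.041), and 24 features lie beyond the axes.

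Among the genes with the largest rises in Ptger4+/+ cells were a Ras-like gene, a decoy receptor and a chromatin organiser. Rasd1, encoding a Ras-like GTPase, had -0.13 and 0.10 on the arrays labelled Ptger4-/-, against 1.37 and 1.30 on those of Ptger4+/+ cells. Il1r2, encoding the decoy receptor for interleukin-1, had 0.03 and 0.09 on the arrays labelled Ptger4-/-, against 1.27 and 1.27 in Ptger4+/+ cells. Satb1, encoding a chromatin organiser of lymphocytes, had 0.22 and 0.07 on the arrays labelled Ptger4-/-, against 1.08 and 1.42 in Ptger4+/+ cells. The pairs lay far apart for all 3, and none was called in cells labelled Ptger4-/-. The stress gene Ddit4 had 0.16 and 0.30 on the arrays labelled Ptger4-/-, against 1.24 and 0.79 in Ptger4+/+ cells. Ly6a, encoding the surface protein Sca-1, had means of 0.05 ± 0.08 in cells labelled Ptger4-/- and 1.10 ± 0.08 in Ptger4+/+ cells. Ptk7, encoding a pseudokinase receptor, had means of -0.29 ± 0.06 in cells labelled Ptger4-/- and 1.18 ± 0.06 in Ptger4+/+ cells.

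Among the largest falls in Ptger4+/+ cells were genes of translation, protein turnover and NF-kB. Eef1g, encoding a subunit of translation elongation factor 1, had 0.10 and 0.08 on the arrays labelled Ptger4-/-, against -2.32 and -2.33 on those of Ptger4+/+ cells. Rpl5, encoding a ribosomal protein, had 0.33 and 0.34 on the arrays labelled Ptger4-/-, against -1.92 and -2.10 in Ptger4+/+ cells. Nfkb1, encoding the NF-kB subunit p50 and its precursor, had -0.25 and -0.08 on the arrays labelled Ptger4-/-, against -1.86 and -2.08 in Ptger4+/+ cells. None of the 3 was called in cells labelled Ptger4-/-, and the difference was called for each. Psma6, encoding a proteasome subunit, had means of 0.06 ± 0.06 in cells labelled Ptger4-/- and -1.92 ± 0.06 in Ptger4+/+ cells. Slc25a3, encoding the mitochondrial phosphate carrier, had means of 0.20 ± 0.10 in cells labelled Ptger4-/- and -1.84 ± 0.10 in Ptger4+/+ cells. Eif3b, encoding a translation initiation factor, had means of -0.08 ± 0.06 in cells labelled Ptger4-/- and -1.82 ± 0.06 in Ptger4+/+ cells.

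Tested directly, the PGE2 effect differed between the genotypes for 2852 of 22533 features (12.7%), with 2102 higher (9.33%) and 750 lower (3.33%) in cells labelled Ptger4-/-. Without array 1 or array 2 labelled Ptger4-/- the count was 1304 or 1096, and without array 2 of Ptger4+/+ cells it was 1671. Among called differences of features with a formal gene symbol, and beside Eef1g and Rpl5, the largest positive ones included Bccip, whose product binds BRCA2, at 1.98 ± 0.13, and Eif3m, a translation initiation gene, at 1.87 ± 0.10. Arfgef1 had the largest called one at 2.46 ± 0.46, and Hnrnpf stood at 2.09 ± 0.39 on Ptger4-/- arrays of opposite sign, 1.76 and -0.11. The call of Arfgef1 was lost without array 2 labelled Ptger4-/- and with single probes. That of Hnrnpf was lost without array 2 of Ptger4+/+ cells, without the dye term and with scaled arrays. The largest negative differences among the same features were those of Cd79a at -1.72 ± 0.09, Pnmal1 at -1.58 ± 0.10 and Pfn1 at -1.52 ± 0.08.

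Few members of the gene lists by function were called in cells labelled Ptger4-/-. The 21 function lists held 538 measured genes, of which 0 rose and 2 fell in cells labelled Ptger4-/- (0.372%), while 37 rose and 222 fell in Ptger4+/+ cells (48.1%). Over all features the shares called were 0.146% in cells labelled Ptger4-/- and 26.1% in Ptger4+/+ cells, and the lists' share in cells labelled Ptger4-/- rests on those 2 genes. The lists were chosen with earlier results of these data known, so their share in Ptger4+/+ cells is not independent evidence. The 2 were Dhcr7, the one called of 18 cholesterol synthesis genes, and Cd79a, the one called of 25 genes of B cell identity and the receptor complex. Their median log2 ratio was -0.02 in cells labelled Ptger4-/- and -0.13 in Ptger4+/+ cells, beside 0.0018 and 0.0084 over all features. Over all features, 17.0% fell and 9.11% rose in Ptger4+/+ cells. In DNA replication, 0 of 41 genes were called in cells labelled Ptger4-/- (median -0.0063), against 29 that fell in Ptger4+/+ cells (median -0.36). The difference was called for 24, all higher in cells labelled Ptger4-/-, beside 9.33% of all features. Pcna, encoding the sliding clamp of DNA polymerase, had means of 0.19 in cells labelled Ptger4-/- and -0.77 in Ptger4+/+ cells. In ribosome biogenesis and Myc targets, 0 of 31 were called in cells labelled Ptger4-/- (median 0.012), against 21 falls and 1 rise in Ptger4+/+ cells (median -0.42). Among heat shock and folding genes, 0 of 19 were called in cells labelled Ptger4-/- (median 0.03), against 13 falls in Ptger4+/+ cells (median -0.54). Among NF-kB targets, 0 of 21 were called in cells labelled Ptger4-/- (median -0.06), against 16 falls and 1 rise in Ptger4+/+ cells (median -0.42). At an unadjusted p under 0.05 the counts in cells labelled Ptger4-/- were 4 for DNA replication, 2 for ribosome biogenesis, 2 for heat shock and 5 for NF-kB targets, beside 8.34% of all features. Since a call needed a smaller unadjusted p in cells labelled Ptger4-/-, the called counts of the genotypes are not like for like.

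In cells labelled Ptger4-/- 16 of the 21 function lists had more than 50% of their members below 0, beside 48.9% of all features. The shares were highest for immediate-early genes (92%), cholesterol synthesis (83.3%) and B cell identity (76%), followed by MAPK and antigen receptor signalling (73.3%), glycolysis (72.7%), NF-kB targets (71.4%) and p53 targets (70.4%). Of the 7 marker lists of other cells 1 was over 50%, that of red cells, with 87.5% of its 8 measured members. Of 25 immediate-early genes, limma called 0 and 7 had an unadjusted p under 0.05, beside 0.146% and 8.34% of all features. Of the 25, 23 had a mean below 0 and 15 were below 0 on both arrays (60% of them, beside 18.9% of all features). The list's median was -0.10 on array 1 and -0.06 on array 2. Jund, encoding a subunit of the factor AP-1, had -0.42 and -0.27 in cells labelled Ptger4-/- (mean -0.35, limma adjusted p = 0.137), and Egr2, encoding an early growth response factor, had -0.11 and -0.07 there. Egr2 stood at a mean of -0.73 in Ptger4+/+ cells. Of 18 cholesterol synthesis genes, 15 had a mean below 0, with list medians of -0.07 and -0.09 on arrays 1 and 2. Of 25 genes of B cell identity and the receptor complex, 19 had a mean below 0, with medians of -0.03 and -0.11. The lists carry no test, and genes of a list are not independent of each other.

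**Figure D5:**
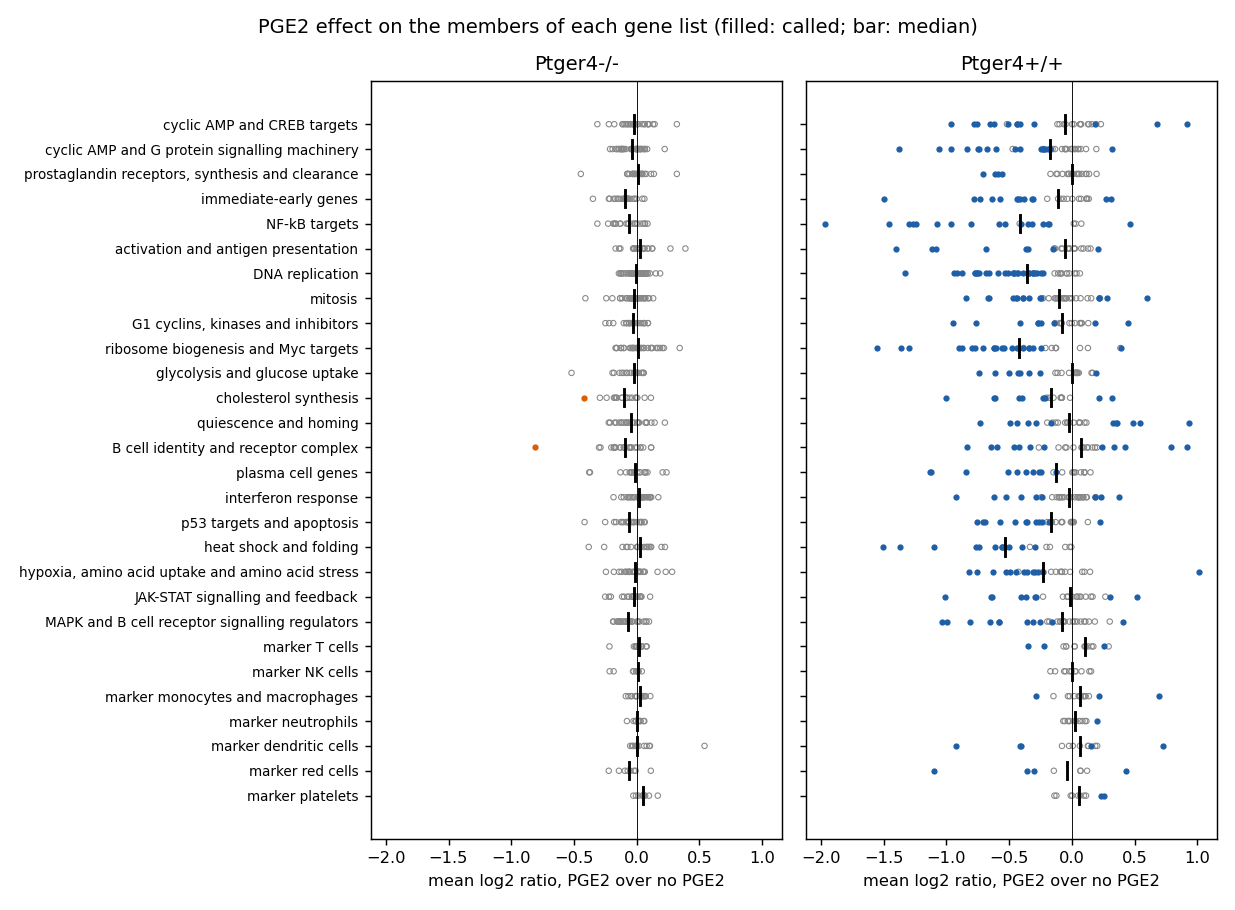
Mean log2 ratio with PGE2 (x axis) of each member of the gene lists (y axis) in cells labelled Ptger4-/- (left) and in Ptger4+/+ cells (right), with called members filled and a bar at each list's median. The Ptger4-/- medians of function lists lie between -0.10 and 0.03, while the Ptger4+/+ medians reach -0.54 for heat shock and folding.

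Markers of other cells were called no more often than features as a whole. Of 86 measured markers of platelets, red cells, T cells, dendritic cells, neutrophils, NK cells and monocytes with macrophages, 0 were called in cells labelled Ptger4-/- by limma (0%), with 3 at an unadjusted p under 0.05, while 9 rose and 9 fell in Ptger4+/+ cells (20.9%). Over all features the shares called were 0.146% in cells labelled Ptger4-/- and 26.1% in Ptger4+/+ cells. An unadjusted p under 0.05 was reached by 8.34% of all features in cells labelled Ptger4-/-. The means of the markers in cells labelled Ptger4-/- ran from -0.22 to 0.54. The highest was Ly6d, which is listed for plasmacytoid dendritic cells and is also made by B lineage cells, at 0.69 and 0.39 (mean 0.54 in cells labelled Ptger4-/-, limma adjusted p = 0.193). Ratios do not show whether a marker was expressed at all, so the B cell label could not be checked against the levels of its markers. In bulk RNA, fewer cells of a type and less RNA per cell cannot be told apart.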

How the data were processed

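Splenic B cell RNA was compared on 10 arrays with 2 colours. Total RNA was column-purified, copied with T7 polymerase and labelled with Cy3 and Cy5, per the labels' protocols. The authors deposited 1 log ratio per probe, read here as log2 of Cy5 over Cy3, and the sources used here do not say how it was normalised. Base 10 would need a wider range than a scanner gives, and whether natural logs were used was not settled. Intensities and probe sequences were not analysed here. Of 25344 probes, 21111 carried 1 symbol and 4233 none; 17069 symbols were current, 3974 were updated and 68 kept. Genes with 1 probe numbered 16299. There were 0 missing values and no filter on low values.

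limma 3.58.1 in R 4.3.3 fitted all 10 arrays (lmFit, eBayes) with 1 coefficient per comparison and 1 for the dye, which left 4 residual and 3.13 prior degrees of freedom. The contrasts were the PGE2 effect in each genotype, their difference, and the direct comparison of the genotypes. Lists were described by counts and medians with no test.

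Named were the prostaglandin and cyclic AMP genes, the 15 largest called rises and falls in cells labelled Ptger4-/-, the 10 largest in each direction in Ptger4+/+ cells and for the difference, genes called in both, and 3 list members by p in each direction. Other called genes were named after their values were seen, and so were a few list members such as Pcna and Egr2 and the choice among the eligible names. The promoter rule pointed mostly to genes high on 1 array, so 2 called genes and 2 targets were shown in their place, also after values were seen. The members and lists were chosen with earlier results of these data known. Alternatives left out the dye term, centred the arrays, also scaled them, took probes singly, used the 24 h arrays alone, tested against 1.5-fold with limma's treat, set the limit at 0.01, or dropped each array of the 2 PGE2 pairs in turn.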

Additional observations from a re-analysis of the deposited data

Results flagged for a closer look

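The PGE2 effect differed between cells labelled Ptger4-/- and Ptger4+/+ cells for 2852 features by the contrast of the limma fit. Each difference below is the Ptger4-/- log2 ratio minus the Ptger4+/+ one.

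Higher in cells labelled Ptger4-/- were mostly genes that fell in Ptger4+/+ cells. Arfgef1 differed by 2.46, Eef1g by 2.41, Rpl5 by 2.34 and Hnrnpf by 2.09. Slc25a3 differed by 2.03, Psma6 by 1.99 and Bccip by 1.98. Bcl2a1c, Dnajc7 and Eif3m each differed by 1.87. Prmt1, which also rose in cells labelled Ptger4-/-, differed by 1.18. The receptor genes Ptger4 and Ptger2 differed by 0.63 and 0.54. Tgfb1 and Tcea1, which fell in both genotypes, differed by 0.41 and 0.36.

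Lower in cells labelled Ptger4-/- were genes that fell there, that rose in Ptger4+/+ cells, or both. Cd79a differed by -1.72, Pnmal1 by -1.58, Pfn1 by -1.52, Ptk7 by -1.47 and Selenow by -1.40. Rasd1 differed by -1.35, Slc22a4 by -1.32, Pcdhb5 by -1.28, Scgb1b27 by -1.27 and Il1r2 by -1.21. Ptk2b differed by -1.16, Psme3 by -1.14, Unc93b1 by -1.09, Tomm6 by -1.05 and Grb2 by -1.04. Cpox differed by -0.99, Nabp2 by -0.95, Ncstn by -0.84, Khsrp by -0.83 and Crem by -0.82. Plekhj1 differed by -0.80, Dhcr7 by -0.74, Ly6e by -0.65, Nab2 by -0.64 and Prrc2a by -0.63. Pde4b differed by -0.55, Atic by -0.53, Lbh by -0.36 and Cic by -0.35.

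Of these 44 genes, 33 kept the call without each of the 4 arrays in turn. The calls of Lbh and Tcea1 were lost without any of the 4. Those of Arfgef1, Ly6e, Ptger4 and Tgfb1 were lost without array 2 labelled Ptger4-/-, that of Pcdhb5 without array 1 labelled Ptger4-/-, that of Atic without either, and that of Hnrnpf without array 2 of Ptger4+/+ cells. Those of Cic and Pde4b were lost without array 1 labelled Ptger4-/- or array 2 of Ptger4+/+ cells.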

How the results depend on the processing

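With 2 arrays a comparison and 4 residual degrees of freedom, counts moved with the settings. In cells labelled Ptger4-/-, 33 calls became 7 without the dye term, 167 with scaled arrays (27 higher, 140 lower, against 2 and 31), 9 with the 24 h arrays alone, 1 with treat and 1 at a limit of 0.01; leaving out single arrays gave 22 to 96. In Ptger4+/+ cells, 5888 became 2906, 3639 with scaled arrays (856 higher, 2783 lower, against 2053 and 3835), 251 with treat and 3170 at 0.01, with 2663 to 5062 on leaving out arrays. The 2852 differences became 1111, 1763 with scaled arrays, 123 with treat and 1272 at 0.01, with 1096 to 2215 on leaving out arrays. The Ptger4-/- median of 0.012 over features that rose in Ptger4+/+ cells became -0.0099 without the dye term, -0.0052 with scaled arrays, -0.025 with treat and -0.0085 at 0.01, and lay between -0.025 and 0.020 on leaving out arrays. That of -0.026 over features that fell became -0.033 with scaled arrays and 0.018 with treat, and lay between -0.033 and -0.021 on leaving out arrays. The stricter limits shorten the lists by construction, and the other causes were not tested. No called value of a named gene changed sign under these settings. Over the 28 lists, the count of members called in cells labelled Ptger4-/- moved in 20 of the cases tried, by 1 or 2 genes. A pair reduced to 1 array was taken to have the spread of the other groups. Each log ratio already sets 2 conditions against each other on 1 array. Arrays could not be matched further across comparisons, because the labels give them no replicate numbers.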
